A study of Mus musculus with 7 samples.

Results

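Remote accessible regions of CD4+ T cell chromatin were described in 3 reporter-sorted populations of mice infected with the nematode Nippostrongylus brasiliensis. A region was taken as remote when its midpoint lay more than 100 kb from every transcription start of a protein-coding gene in the GENCODE M21 basic annotation of GRCm38/mm10, on autosomes only. This held for 12402 of the 113820 regions in the table, of which 111639 were autosomal. The choice used positions alone and no measured value. ATAC-seq (assay for transposase-accessible chromatin) counts insertions of a transposase, which enters open chromatin more easily than packed chromatin. The lymph node (LN) IL-4+ population (n = 2) and the lung IL-4+ population (n = 3) were GFP+ CD4+ T cells of IL-4 4get reporter mice, from the mediastinal LN and the lung. The lung IFNγ+ population (n = 2) was YFP+ CD4+ T cells from the lungs of IFN-gamma GREAT reporter mice. All mice were C57BL/6 and were studied on day 8 after subcutaneous infection with 500 L3 larvae, and 50000 cells went into each library. Uninfected mice and reporter-negative cells were not analysed here, so each population was compared only with the others. The age of the mice is not given in the sources used here, and the IL-4+ and IFNγ+ cells came from different reporter lines, so that reporter line and cytokine population cannot be told apart.

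Regions this far from coding genes are mostly candidate enhancers, which are stretches of DNA that bind transcription factors and can act on a gene across long distances by looping. In T helper cells, enhancers of this kind are bound by lineage factors such as GATA3 in IL-4-producing cells and T-bet in IFNγ-producing cells, together with RUNX proteins and with AP-1, which follows activation. Their accessibility is known to differ more between cell types than that of promoters. Genes that flank a region are given below for position only, since ATAC-seq does not show which gene a region acts on.

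The central 200 bases of 9 regions with accessibility differences described below are printed here. Whether the differences depend on these bases was not tested. The bases are from the + strand of GRCm38/mm10. Capitals mark matches on either strand to short motif strings, namely AACCACA for RUNX, AGATAA for GATA factors, TGANTCA for AP-1, ATCAAAG for TCF, AGGTGTGA for T-box, TTCNNNGAA for STAT and CAGCTG for the E-box. Each of the first 4 was the called region with the largest change in a direction, the next 4 were the called regions with the largest changes that held a given motif, and the last was the remote region beside Ifng.
chr1:108041112-108041311, between Serpinb8 and Cdh7, with no match but a dinucleotide repeat: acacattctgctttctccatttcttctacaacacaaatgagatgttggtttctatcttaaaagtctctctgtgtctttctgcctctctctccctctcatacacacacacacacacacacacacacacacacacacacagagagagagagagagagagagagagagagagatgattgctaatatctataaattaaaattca
chr5:75826499-75826698, between Kit and Kdr, with an AP-1 match: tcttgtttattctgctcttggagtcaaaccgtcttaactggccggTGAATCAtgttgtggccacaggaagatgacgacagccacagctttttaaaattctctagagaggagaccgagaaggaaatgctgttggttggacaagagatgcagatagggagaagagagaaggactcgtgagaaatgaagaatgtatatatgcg
chr17:51396084-51396283, between Tbc1d5 and Satb1, with 2 AP-1 matches: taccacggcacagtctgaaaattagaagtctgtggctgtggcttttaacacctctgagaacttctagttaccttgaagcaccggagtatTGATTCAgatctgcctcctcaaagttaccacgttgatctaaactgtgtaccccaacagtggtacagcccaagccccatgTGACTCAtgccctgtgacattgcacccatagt
chr12:25601067-25601266, between Id2 and Rnf144a, with a TCF match: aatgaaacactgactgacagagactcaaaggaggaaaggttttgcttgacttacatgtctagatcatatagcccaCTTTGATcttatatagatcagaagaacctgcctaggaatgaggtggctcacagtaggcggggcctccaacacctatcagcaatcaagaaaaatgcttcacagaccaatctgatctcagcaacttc
chr1:154046113-154046312, between Teddm2 and Zfp648, with a GATA and an AP-1 match: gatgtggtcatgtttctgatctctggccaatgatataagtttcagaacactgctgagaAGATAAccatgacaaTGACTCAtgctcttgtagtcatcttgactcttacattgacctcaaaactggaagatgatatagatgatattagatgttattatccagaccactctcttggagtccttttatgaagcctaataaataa
chr5:20087180-20087379, in an intron of Magi2, with a TCF match: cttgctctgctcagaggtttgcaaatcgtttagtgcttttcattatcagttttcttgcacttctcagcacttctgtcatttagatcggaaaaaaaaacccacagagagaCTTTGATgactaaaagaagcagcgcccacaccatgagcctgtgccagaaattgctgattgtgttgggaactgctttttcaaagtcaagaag
chr16:11519232-11519431, in an intron of Snx29, with a T-box match: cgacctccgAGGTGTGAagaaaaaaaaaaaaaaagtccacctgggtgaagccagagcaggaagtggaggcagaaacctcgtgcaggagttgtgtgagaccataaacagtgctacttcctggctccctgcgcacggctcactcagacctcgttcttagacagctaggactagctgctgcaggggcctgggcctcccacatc
chr13:81162489-81162688, in an intron of Adgrv1, with a STAT and a RUNX match: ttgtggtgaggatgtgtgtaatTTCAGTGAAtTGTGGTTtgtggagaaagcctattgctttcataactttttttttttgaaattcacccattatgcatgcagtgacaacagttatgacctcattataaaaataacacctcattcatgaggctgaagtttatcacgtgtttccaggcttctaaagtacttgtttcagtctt
chr10:118550318-118550517, between Ifng and Dyrk2, with an E-box match: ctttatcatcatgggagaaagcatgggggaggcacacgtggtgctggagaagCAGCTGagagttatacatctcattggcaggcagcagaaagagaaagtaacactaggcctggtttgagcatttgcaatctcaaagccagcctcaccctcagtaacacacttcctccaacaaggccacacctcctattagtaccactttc

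Values are log2 densities, that is the log2 of normalized insertions per kb of region, and replicates are listed in the order of their numbers. The region between Tbc1d5 and Satb1 (chr17:51395968-51396400) had log2 densities of -0.10 and -0.22 in LN IL-4+ cells, 1.34, 0.51 and 2.00 in lung IL-4+ cells and 4.83 and 4.72 in lung IFNγ+ cells. The 3 populations did not overlap, which the choice of the region had required of lung IFNγ+ and LN IL-4+ cells. In sorted bulk cells, a higher density in every cell and more cells with an open region cannot be told apart. The lung IFNγ+ libraries exceeded the LN libraries by a log2 difference of 4.94 ± 0.51 (SE, adjusted p = 0.00165 by limma), and that between lung IL-4+ and lung IFNγ+ cells was -3.50 ± 0.46 (adjusted p = 0.0165 by limma). SATB1 organizes chromatin in T cells. Between Serpinb8 and Cdh7 (chr1:108040854-108041569), the log2 densities were -0.57 and 0.51 in LN IL-4+ cells, 0.94, -0.72 and 0.77 in lung IL-4+ cells and 4.42 and 4.35 in lung IFNγ+ cells. Only the lung IFNγ+ libraries stood apart there, 4.41 ± 0.66 above LN IL-4+ cells (SE, adjusted p = 0.00621 by limma) and 4.05 ± 0.60 above lung IL-4+ cells in the log2 difference. Much of its printed stretch is a dinucleotide repeat.

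Beside Ifng, the gene of the cytokine that the reporter marks, 21 remote regions were listed towards Dyrk2. Their summed normalized insertions were 62.8 and 101 in LN IL-4+, 69.0, 54.6 and 55.1 in lung IL-4+ and 94.6 and 91.7 in lung IFNγ+ cells. The LN IL-4+ and lung IFNγ+ sums thus overlapped. The lung IFNγ+ minus LN IL-4+ difference was positive in 13 of these 21 regions, and 2 were called. One of them (chr10:118550209-118550626, 109 kb from the nearest start) had log2 densities of 0.29 and -0.17 in LN IL-4+ cells, 0.70, 0.63 and 1.25 in lung IL-4+ cells and 3.64 and 3.30 in lung IFNγ+ cells. Lung IFNγ+ cells exceeded LN IL-4+ cells there by 3.41 ± 0.51 (SE, adjusted p = 0.00615 by limma), and the lung IL-4+ minus lung IFNγ+ difference was -2.61 ± 0.46 (adjusted p = 0.0401 by limma). The intron region of Adgrv1 (chr13:81162365-81162812) had -1.55 and 1.28 in LN IL-4+ cells, 2.67, 1.15 and 1.29 in lung IL-4+ cells and 4.38 and 4.24 in lung IFNγ+ cells. Its LN IL-4+ replicates lay far apart and overlapped with the lung IL-4+ values, and the lung IFNγ+ minus LN IL-4+ difference had the wider error of 4.44 ± 0.82 (SE, adjusted p = 0.0152 by limma). In the Snx29 intron (chr16:11519119-11519544), which holds the T-box string, the lung IFNγ+ libraries had 4.07 and 3.88 against 1.44, 0.33 and 0.78 in lung IL-4+ and 1.72 and 2.21 in LN IL-4+ cells. T-box factors such as T-bet drive IFNγ expression, and the lung IL-4+ minus lung IFNγ+ difference in this region was -3.12 ± 0.41 (SE, adjusted p = 0.0164 by limma).

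The Id2 interval held the opposite pattern 504 kb from the nearest start. ID2 blocks E proteins by binding them. At chr12:25600944-25601389 the log2 densities were 4.39 and 4.92 in LN IL-4+ cells, 2.63, 2.97 and 2.30 in lung IL-4+ cells and 0.30 and 1.00 in lung IFNγ+ cells. The 3 populations were ordered with no overlap, and all 3 contrasts were called: -2.02 ± 0.35 for lung IL-4+ against LN IL-4+ cells (SE, adjusted p = 0.0155 by limma), 1.98 ± 0.35 for lung IL-4+ against lung IFNγ+ cells (adjusted p = 0.0397) and -4.00 ± 0.38 for lung IFNγ+ against LN IL-4+ cells (adjusted p = 0.00123). It was the only remote region called in all 3 contrasts in this order. The Magi2 intron region (chr5:20087059-20087501), which holds the same TCF string, had 5.24 and 5.89 in LN IL-4+ cells, 2.95, 1.84 and 0.45 in lung IL-4+ cells and 2.04 and 2.72 in lung IFNγ+ cells. Both lung populations lay below both LN libraries, by -3.82 ± 0.59 (adjusted p = 0.0101 by limma) and -3.18 ± 0.64 (adjusted p = 0.0234).

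Higher in lung IL-4+ than in LN IL-4+ cells was the region between Kit, the receptor of stem cell factor, and Kdr (chr5:75826302-75826896), with log2 densities of -0.11 and 1.17 in LN IL-4+ cells, 4.57, 3.94 and 3.74 in lung IL-4+ cells and 3.08 and 3.53 in lung IFNγ+ cells. The difference between the IL-4+ populations was 3.55 ± 0.41 (SE, adjusted p = 0.00386 by limma), and lung IFNγ+ cells also exceeded LN IL-4+ cells by 2.77 ± 0.45 (adjusted p = 0.00897). The region between Teddm2 and Zfp648 (chr1:154045971-154046454) joins the GATA and AP-1 strings. It had 0.66 and 1.71 in LN IL-4+ cells, 5.05, 3.92 and 3.60 in lung IL-4+ cells and 2.73 and 3.28 in lung IFNγ+ cells, so that the 3 populations did not overlap. The difference of 3.00 ± 0.46 between the IL-4+ populations was called (adjusted p = 0.00968 by limma), while the lung IFNγ+ minus LN IL-4+ difference of 1.82 ± 0.50 was not (adjusted p = 0.0741).

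**Figure D1:**
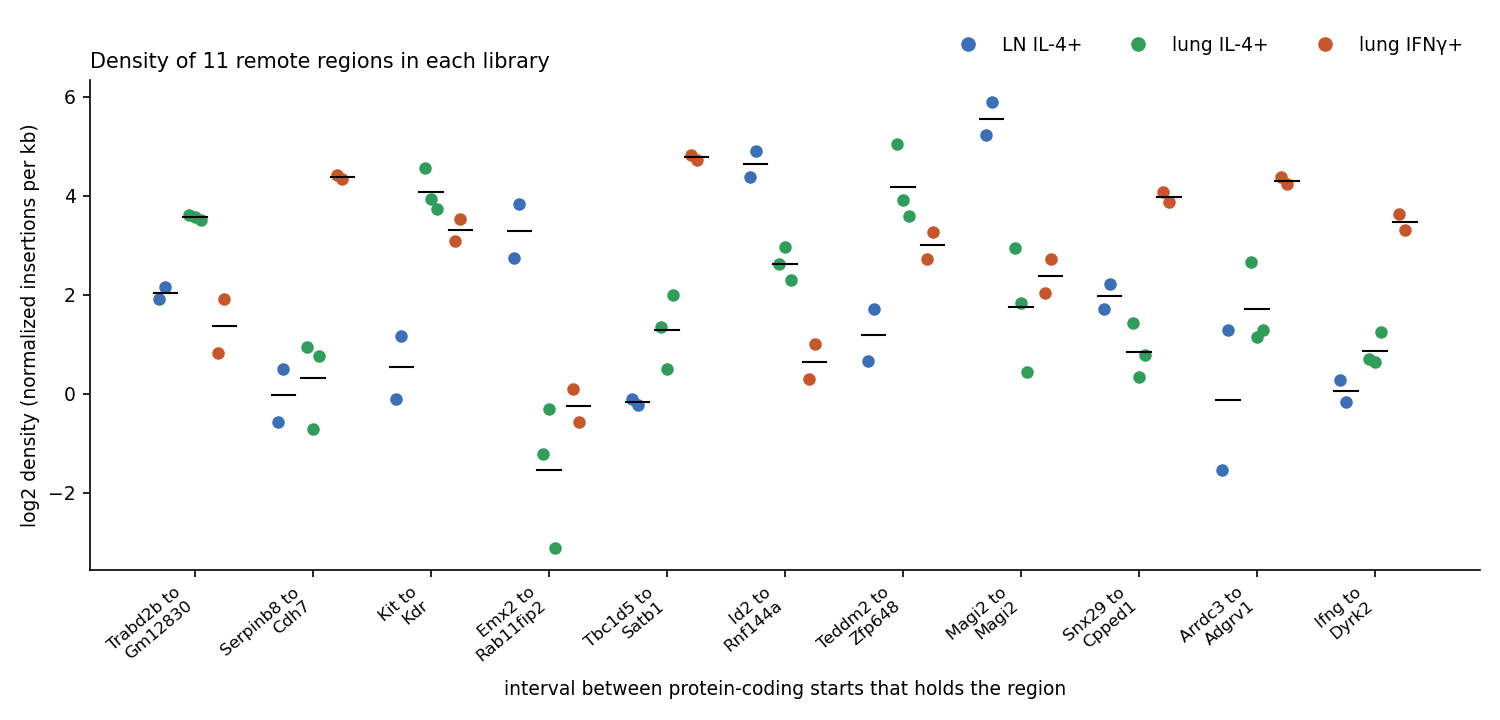
Log2 density (normalized insertions per kb) of 11 remote regions, named by the interval between protein-coding starts that holds them. Each point is 1 library, colours stand for the population and black lines are population means. In the Tbc1d5 to Satb1 region the lung IFNγ+ points sit at 4.83 and 4.72, above all others.

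The remote regions were short and poor in GC. Their median length was 429 bp, against 500 bp for autosomal regions within 100 kb and 777 bp for promoter regions within 1 kb of a start, and 5395 of them (43.5%) had the shortest length in the table, 401 bp. They had a median GC content of 44.4% and a median CpG observed-to-expected ratio of 0.183, whereas promoter regions had 56.1% and 0.619. The median distance to a start was 180 kb and the largest 2680 kb. They lay between genes in 66.7% of cases, in introns in 31.0% and over exons in 2.30%, and 1955 (15.8%) overlapped a long noncoding RNA gene. They made up 4.09% of the regions on chromosome 11 and 4.40% on chromosome 19, and 18.9% on chromosome 13 and 18.8% on chromosome 12. Repeats covered a median of 12.8% of a remote region, near the 12.9% of regions within 100 kb.

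Remote here means remote from the starts of protein-coding genes of 1 annotation. A start of another gene type lay within 1 kb of 592 members, and 10081 members (81.3%) lay within 100 kb of a start of some gene. With every transcript of the annotation rather than the basic set, 3198 (25.8%) fell within 100 kb of a coding start, and with RefSeq mRNA starts 357 (2.88%) did, 24 of them within 1 kb. Of the members, 50 overlapped Zswim6, which this annotation does not list as protein-coding, and 201 lay in or near antigen receptor loci, whose segments are not listed as protein-coding genes either. Leaving out the 357 regions near RefSeq mRNA starts, a check chosen after seeing the data, left 12045 regions, of which 6.34% were called in at least 1 contrast, against 6.23% of the members.

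The libraries did not group by population alone. Pearson's r between libraries over the remote regions, which share base composition and mapping, was 0.91 between the lung IFNγ+ replicates, 0.66 between the LN IL-4+ replicates, and 0.71, 0.66 and 0.74 among the lung IL-4+ replicates. Lung IL-4+ replicate 1 correlated with the lung IFNγ+ libraries at 0.78 and 0.81, above its values with its own replicates, and LN IL-4+ replicate 2 correlated at 0.72 with that library and 0.66 with its own replicate. The spread of insertions among regions followed the same split. The log2 ratio of upper to lower quartile was 2.91 to 3.09 in the lung IFNγ+ libraries, replicate 1 of the lung IL-4+ cells and replicate 2 of the LN cells, and 1.67 to 1.75 in the other 3, so that the lung IFNγ+ libraries were all of the wide kind. The same library pairs correlated at 0.89 to 0.99 over promoter regions. By ranks of tied values, the libraries held at least 14005923 to 91681969 insertions, and the median remote region held at least 38 to 106. Of the T cell markers, Cd3e promoter density was 15.5 to 26.2 and Cd4 8.23 to 16.5 normalized insertions per kb. For Cd8a, Cd79a, Ms4a1, Csf1r, Lyz2, Sftpc, Pecam1 and Cdh5, no region in the table lay within 1 kb of the start, nor for the T cell gene Cd2, while the epithelial gene Epcam had 8.79 to 12.5.

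**Figure D2:**
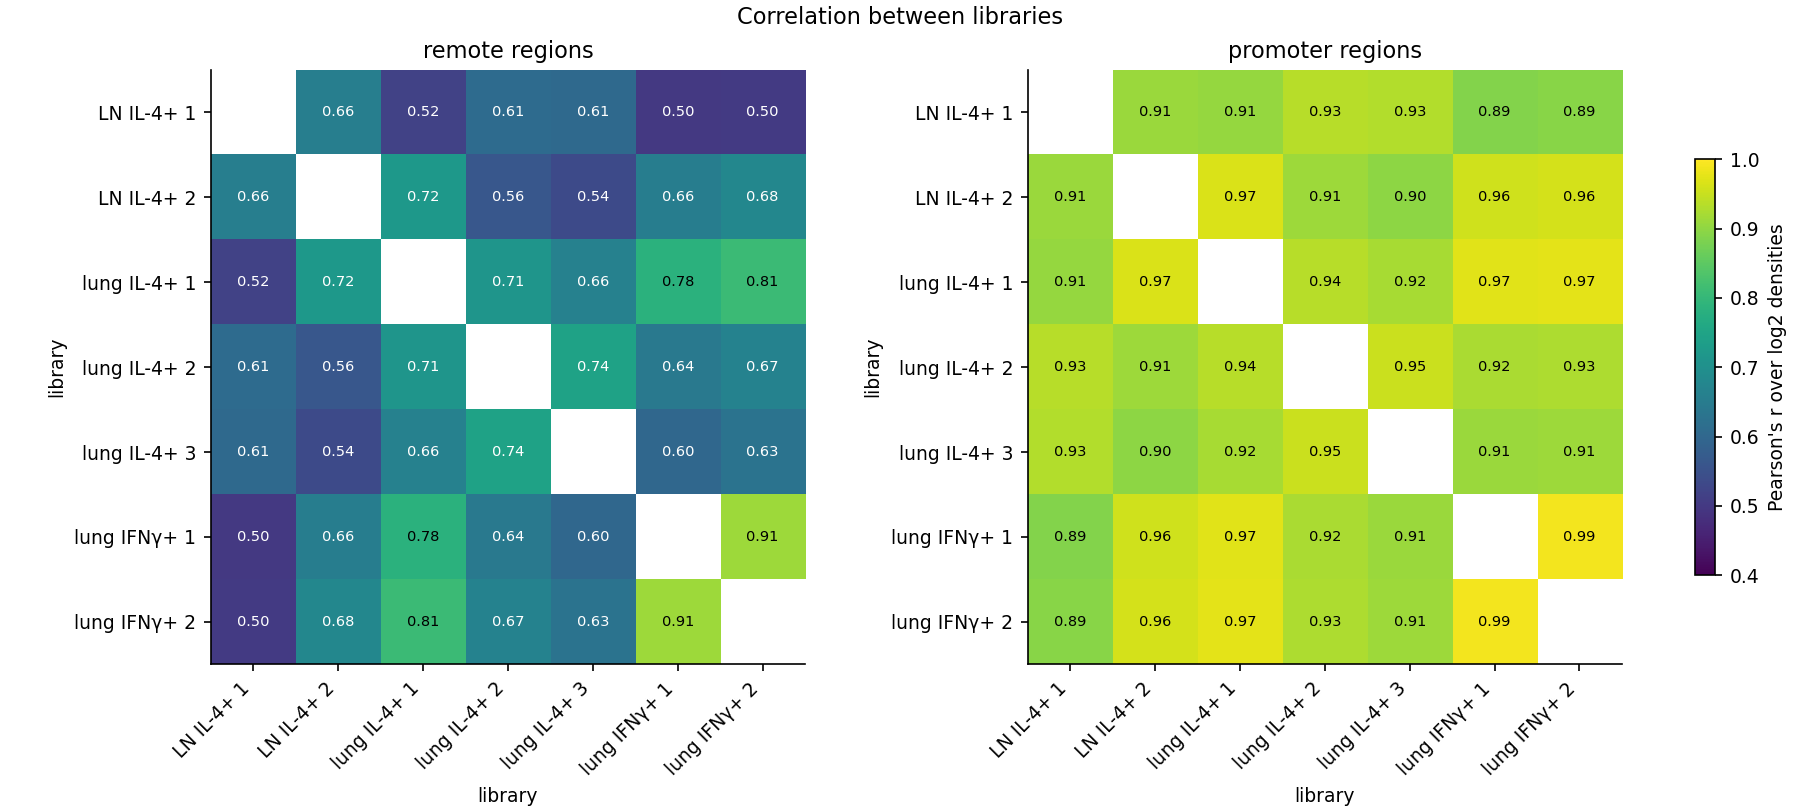
Pearson's r between the log2 densities of the 7 libraries, over the 12402 remote regions on the left and the 17502 promoter regions on the right. Rows and columns are libraries, and the remote panel has its highest value, 0.91, between the lung IFNγ+ replicates.

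The Euclidean distance over the remote log2 densities was on average 1.21 times as large between as within populations (210 assignments of the 7 libraries, exact permutation, one-sided, p = 0.0286). The same ratio over promoter regions was 1.15, and the excess of 0.062 for remote regions had an exact permutation p of 0.0857. Between LN and lung libraries the ratio was 1.20 (21 assignments, exact permutation, one-sided, p = 0.0476, the smallest p possible). Leaving out any 1 of the 7 libraries left both ratios above 1. Without a lung IL-4+ library, the exact permutation p was 0.0667 to 0.133 for populations and for tissues. With so few assignments the smallest p possible there is 0.0667, so that p below 0.05 could not be reached. These p therefore cannot show whether the differences hold without 1 lung IL-4+ library. Leaving out an LN IL-4+ or lung IFNγ+ library left 1 library in that population. The population ratio was then 1.22 and 1.26 without LN IL-4+ replicates 1 and 2, and 1.10 and 1.12 without lung IFNγ+ replicates 1 and 2.

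No difference between populations was detected in the share of normalized insertions that fell in remote regions. The share was 4.28% and 5.16% in the LN IL-4+ libraries (mean 4.72% ± 0.618, SD, n = 2), 5.16%, 4.86% and 4.74% in the lung IL-4+ libraries (mean 4.92% ± 0.214, n = 3) and 5.17% and 5.20% in the lung IFNγ+ libraries (mean 5.18% ± 0.0189, n = 2). The wide LN library reached the level of the lung IFNγ+ libraries and the narrow one had the lowest value of all. The differences of -0.261 percentage points between lung IL-4+ and lung IFNγ+ cells, 0.204 between lung IL-4+ and LN IL-4+ cells and 0.465 between lung IFNγ+ cells and LN IL-4+ cells had exact two-sided permutation p of 0.2, 0.6 and 0.33. The smallest p that these numbers of libraries allow is 0.1, 0.1 and 0.33. Insertion counts were also rebuilt out of the ranks of tied values, which gives lower bounds of the counts before normalization. The shares from these bounds, which are not shares of exact counts, were 5.28% and 5.08%, then 5.01%, 5.87% and 5.81%, then 4.89% and 5.07%, in the same order.

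With a mean density of at least 5 normalized insertions per kb taken as accessible, 5511 remote regions (44.4%) were accessible in at least 1 population, against 60.0% of regions within 100 kb and 84.0% of promoter regions. LN IL-4+ cells had 3604 accessible remote regions (29.1%, within 100 kb 45.6%), lung IL-4+ cells 3324 (26.8%, within 100 kb 46.0%) and lung IFNγ+ cells 3836 (30.9%, within 100 kb 44.3%). All 3 populations shared 2061 of them, which is 37.4% of the accessible remote regions, compared with 54.4% of those within 100 kb and 82.2% of those at promoters. Accessible in lung IFNγ+ cells alone were 931, in LN IL-4+ cells alone 910 and in lung IL-4+ cells alone 478. Of the 59528 accessible regions within 100 kb, 5261, 6343 and 5046 were so, in the same order. The mean was over 3 libraries for lung IL-4+ cells and over 2 for each other population. A fixed limit leaves regions near it on either side, so these counts were not tested. Accessibility fell with distance, from 52.7% of regions at 100 to 200 kb to 41.4% at 200 to 500 kb and 16.0% beyond 500 kb.

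A region was called when its adjusted p in limma was below 0.05, with Benjamini-Hochberg adjustment over all 113820 regions, and its difference was at least 3-fold. At least 1 call was made on 773 remote regions (6.23%), against 4.10% of all regions. Autosomal regions beyond 50 kb, which include the remote ones, had 6.32%, so the higher share was not particular to the 100 kb limit. Lung IFNγ+ cells exceeded LN IL-4+ cells in 384 remote regions (3.10%, background 2.17%), and LN IL-4+ exceeded lung IFNγ+ cells in 173 (1.39%, background 0.862%). Lung IL-4+ exceeded LN IL-4+ cells in 182 (1.47%, background 1.05%) and the reverse held in 169 (1.36%, background 0.695%). Between the lung populations, 77 remote regions were higher in IFNγ+ cells (0.621%, background 0.387%) and 11 in IL-4+ cells (0.0887%, background 0.108%). The last share lay near its background. Background here is the percentage of all regions called in that direction. The median log2 difference over the remote regions was -0.06 for lung IL-4+ against lung IFNγ+ cells, -0.01 for lung IL-4+ against LN IL-4+ cells and 0.05 for lung IFNγ+ against LN IL-4+ cells, where all regions had -0.01, -0.03 and -0.03. The LN libraries enter both tissue comparisons, so these are not independent.

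These counts depended on single libraries. Where a library of the LN IL-4+ or lung IFNγ+ cells was left out, 1 library was left in that population, and it was assumed to vary like the other populations. Without lung IL-4+ replicate 1, the library that resembled the lung IFNγ+ cells, the lung IFNγ+ cells were above the lung IL-4+ cells in 164 remote regions, 18 were higher in lung IL-4+ cells, and 117 were higher in lung IL-4+ cells than in LN IL-4+ cells. Leaving out LN IL-4+ replicate 2 raised the regions higher in lung IFNγ+ cells than in LN IL-4+ cells to 728 and those higher in lung IL-4+ cells than in LN IL-4+ cells to 390, and left 58 higher in LN IL-4+ cells than in lung IL-4+ cells. Without either lung IFNγ+ replicate, 13 or 27 regions were higher in lung IFNγ+ cells than in LN IL-4+ cells and 1 or 10 higher in LN IL-4+ cells. Without lung IL-4+ replicate 2, the IL-4+ populations differed in 40 and 30 regions, and the lung populations in 0 of either direction. Between the lung populations, 127 and 352 then differed at least 3-fold with an unadjusted p below 0.05 in limma.

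The share of regions called for lung IFNγ+ over LN IL-4+ cells was 0.446% within 1 kb of a start, 3.11% at 50 to 100 kb, 3.43% at 100 to 200 kb, 2.98% at 200 to 500 kb and 1.95% beyond 500 kb. As a share of all regions in a bin, accessible or not, it was thus largest at 100 to 200 kb and lower farther out. For lung IL-4+ over LN IL-4+ cells it was 1.71%, 1.43% and 0.549% in the 3 remote bins, and for LN IL-4+ over lung IL-4+ cells 1.56%, 1.40% and 0.427%. The median log2 density fell over the same bins, from 1.79 to 1.46 and 1.01, and the median residual SD was 0.538 for remote regions, 0.436 within 100 kb and 0.268 at promoters. Of the accessible regions only, 6.44%, 6.95% and 12.2% were called for lung IFNγ+ over LN IL-4+ cells in the 3 remote bins. The last share rests on 263 accessible regions. For lung IL-4+ over LN IL-4+ cells the shares of accessible regions were 3.15%, 3.31% and 3.42%, and for the reverse 2.96%, 3.38% and 2.66%. The part of level and spread in these shares was not tested.

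**Figure D3:**
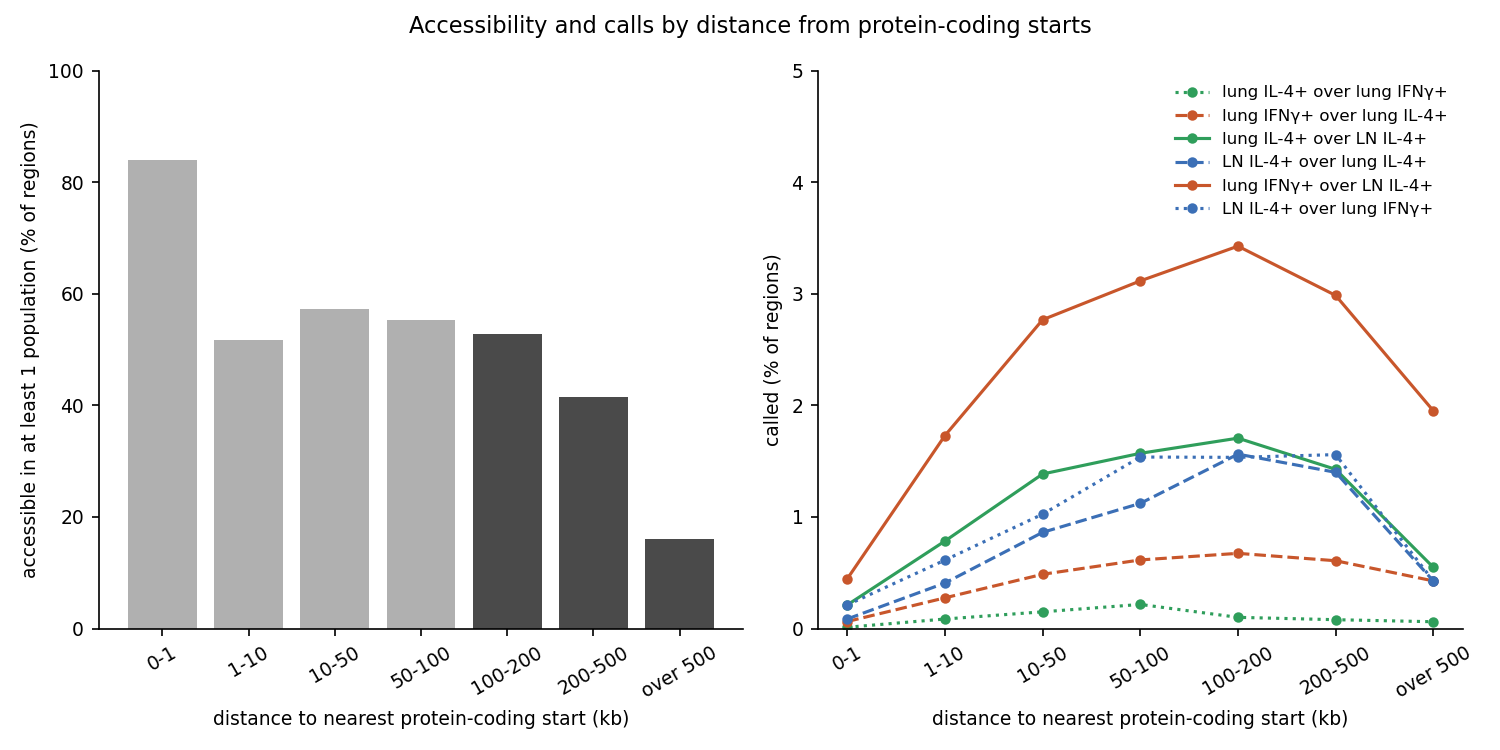
Regions by distance to the nearest protein-coding start, in kb. Bars on the left give the percentage accessible in at least 1 population, with remote bins dark. Lines on the right give the percentage of all regions in a bin, accessible or not, that were called in each direction. Accessibility drops to 16.0% beyond 500 kb, and the lung IFNγ+ over LN IL-4+ line peaks at 3.43% and ends at 1.95%.

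Beyond those printed, the largest changes were spread over the autosomes. The rule of 5 regions per direction gave 27 different regions, 14 between genes and 13 in introns. It kept only called regions where the libraries of the 2 populations compared did not overlap. In the Map2k5 intron (chr9:63275064-63275529), LN IL-4+ log2 densities of 0.37 and 0.05 stood against 3.32, 3.82 and 3.64 in lung IL-4+ and 4.34 and 4.57 in lung IFNγ+ cells. MAP2K5 is a kinase of the ERK5 pathway, and the region was called in both lung populations, by 3.38 ± 0.28 (adjusted p = 0.00218 by limma) and 4.24 ± 0.31 (adjusted p = 0.00072). A region between Nr5a2 and Ptprc, the gene of CD45 (chr1:137751328-137751853), had -0.91 and -2.49 in LN IL-4+, 2.36, 1.02 and -0.38 in lung IL-4+ and 2.97 and 2.76 in lung IFNγ+ cells, and the lung IFNγ+ minus LN IL-4+ difference was 4.57 ± 0.92 (adjusted p = 0.0225). Among regions higher in LN IL-4+ cells, one between Fut8 and Gm6657 (chr12:77666397-77666814) had 3.93 and 3.58 in LN IL-4+, 0.83, 1.31 and 0.53 in lung IL-4+ and 0.47 and -0.22 in lung IFNγ+ cells. The Syne1 intron (chr10:5197275-5197737) had 3.94 and 4.86 against 1.62, 0.55 and 0.94 and then 2.24 and 2.21. The 2 LN libraries exceeded every lung library in both regions, which the rule required in the contrast that named each.

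The 11 regions higher in lung IL-4+ cells than in lung IFNγ+ cells had at most a log2 difference of 2.20 ± 0.36 (SE, adjusted p = 0.0318 by limma), between Trabd2b and Gm12830 (chr4:114664100-114665021), where the lung IL-4+ libraries had 3.62, 3.57 and 3.52, the LN libraries 1.93 and 2.16 and the lung IFNγ+ libraries 0.82 and 1.92. Beside Egln3, a prolyl hydroxylase of hypoxia sensing (chr12:54458948-54460629), the log2 densities were 4.46, 4.53 and 4.60 in lung IL-4+ cells, 2.02 and 2.73 in lung IFNγ+ cells and 2.83 and 3.27 in LN IL-4+ cells (log2 difference of the lung populations 2.15 ± 0.27, adjusted p = 0.0157 by limma). In the Arhgap15 intron (chr2:43870857-43871304), the lung IL-4+ values of 2.16, 2.81 and 2.57 resembled the LN IL-4+ values of 2.00 and 2.58, and lung IFNγ+ cells had 0.30 and 0.43. The same held between Tnfrsf11a, the gene of the receptor RANK, and Zcchc2 (chr1:105883164-105884351), at 2.31, 2.41 and 2.50 in lung IL-4+, 2.61 and 2.10 in LN IL-4+ and 0.31 and 0.17 in lung IFNγ+ cells. In each of these 3 regions the lung IFNγ+ libraries were the lowest.

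The remote regions fell into 1504 intervals between neighbouring protein-coding starts, 360 of which held a single remote region and 371 at least 10. Calls were made in 375 intervals. The 10 intervals with the most remote regions held 946 (7.63%) of them. At least 3 called remote regions were found in 54 intervals for lung IFNγ+ against LN IL-4+ cells, in 31 for lung IL-4+ against LN IL-4+ cells and in 2 for the lung populations. Intervals below were chosen by size, by their calls or by a flanking gene of the lists, and sums over an interval are therefore described without a test.

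Next to transcription factors that set T helper lineages, 11 of 18 listed genes flanked an interval with remote regions, and 73 of the 577 remote regions there (12.7%) were called, against 6.23% of all remote regions. Of these, 29 were higher in lung IL-4+ cells than in LN IL-4+ cells (5.03%, all remote regions 1.47%). In lung IFNγ+ cells 41 were raised over LN IL-4+ cells (7.11%, all 3.10%). The other way, 5 and 7 changed (0.867% and 1.21%, all 1.36% and 1.39%). The list was chosen with earlier results of these data known. The part of accessibility in these shares was not tested. The median log2 difference over the list was 0.36 for lung IL-4+ against LN IL-4+ and 0.30 for lung IFNγ+ against LN IL-4+ cells. T cell identity factors had 21 called of 411 (5.11%). Of these, 8 were lower in lung IL-4+ cells than in LN IL-4+ cells and 3 higher (1.95% and 0.730%, all remote regions 1.36% and 1.47%). Activation-induced factors had 14 called of 153 (9.15%), migration and co-receptor genes 9 of 149 (6.04%), and cytokines and their receptors 3 of 51 (5.88%). Genes of other cell types had 0 of 11.

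Gata3, the lineage factor of IL-4-producing cells, and Celf2 flanked 81 remote regions. Of these, 5 were higher in lung IL-4+ cells than in LN IL-4+ cells and 1 lower. At chr2:9367606-9368529, 511 kb from the nearest start, LN IL-4+ cells had log2 densities of 0.98 and 2.60, lung IL-4+ cells 4.95, 4.50 and 4.79 and lung IFNγ+ cells 3.45 and 3.57 (lung IL-4+ minus LN IL-4+ 2.96 ± 0.40, adjusted p = 0.00609 by limma). The lung IL-4+ cells were highest with no overlap. At chr2:9583732-9585548 lung IL-4+ cells with 2.73, 2.86 and 3.11 resembled LN IL-4+ cells with 2.88 and 2.31, and the lung IFNγ+ libraries had 0.53 and 1.09 (lung IL-4+ minus lung IFNγ+ 2.09 ± 0.36, adjusted p = 0.0374). Summed over the interval, normalized insertions were 348 and 458 in LN IL-4+, 569, 468 and 501 in lung IL-4+ and 342 and 375 in lung IFNγ+ cells, highest in the lung IL-4+ libraries.

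Itpr1 and Bhlhe40, a factor needed for cytokine production by T helper cells, flanked 75 remote regions, and their sums were 514 and 710 in LN IL-4+, 1011, 1067 and 1074 in lung IL-4+ and 716 and 763 in lung IFNγ+ cells. Positive lung IL-4+ minus LN IL-4+ differences were found in 65 of the 75, of which 4 were called. At chr6:108540420-108541213, in an Itpr1 intron 120 kb from the nearest start, the log2 densities were 1.99 and 2.39 in LN IL-4+, 4.14, 4.46 and 4.52 in lung IL-4+ and 4.77 and 4.95 in lung IFNγ+ cells. Both lung populations exceeded LN IL-4+ cells, by 2.18 ± 0.23 (adjusted p = 0.00278 by limma) and 2.67 ± 0.25 (adjusted p = 0.00118). Between Wwox and Maf, a factor that activates Il4, 120 remote regions were found, with 8 higher and 1 lower in lung IL-4+ cells than in LN IL-4+ cells and 10 higher in lung IFNγ+ cells than in LN IL-4+ cells. The lower one, at chr8:115236945-115237478, had 3.38 and 3.36 in LN IL-4+, 1.04, 0.07 and 0.55 in lung IL-4+ and 2.24 and 2.19 in lung IFNγ+ cells, so the lung populations did not overlap.

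Of the 89 remote regions between Id2 and Rnf144a, those nearer to Id2 and those farther away went apart. Within 400 kb of the Id2 start, a limit chosen after the values were seen, 45 of 57 had a positive log2 difference between lung IL-4+ and LN IL-4+ cells (median 0.55) and 47 between lung IFNγ+ cells and LN IL-4+ cells (median 1.03). Beyond it, 9 and 8 of 32 were positive, with medians of -0.52 and -0.68. Called regions were 4 higher and 1 lower in lung IL-4+ cells than in LN IL-4+ cells, and 10 higher and 2 lower in lung IFNγ+ cells than in LN IL-4+ cells. The strongest near Id2, at chr12:25365304-25365780, had -0.69 and 0.85 in LN IL-4+, 2.84, 2.62 and 2.41 in lung IL-4+ and 3.74 and 3.67 in lung IFNγ+ cells.

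**Figure D4:**
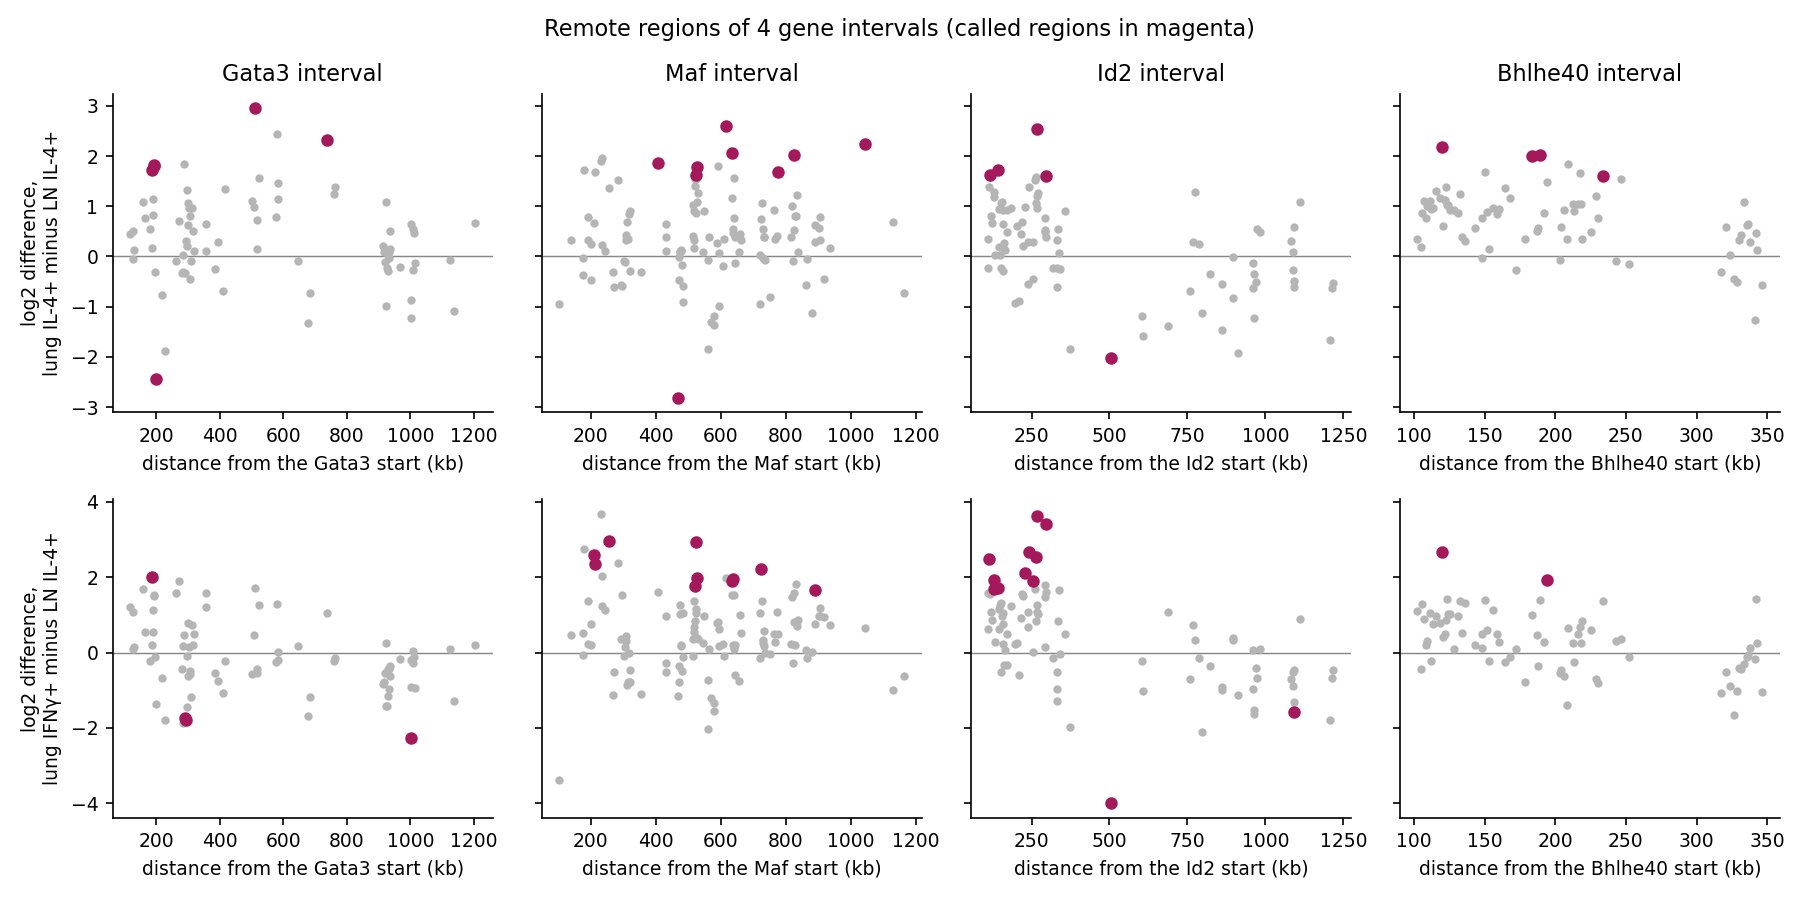
Log2 difference of each remote region from LN IL-4+ cells against its distance from the named gene's start in kb, for the intervals of Gata3, Maf, Id2 and Bhlhe40, with lung IL-4+ cells above and lung IFNγ+ cells below. Magenta points are called regions. In the Id2 panels, points within 400 kb have medians of 0.55 and 1.03 and those beyond it -0.52 and -0.68.

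Rora, a nuclear receptor of type 2 lymphocytes, spans 36 remote regions between 2 of its own starts. Their summed insertions were 111 and 148 in LN IL-4+, 311, 274 and 266 in lung IL-4+ and 215 and 207 in lung IFNγ+ cells, with no overlap among populations. In 33 of the 36 the lung IL-4+ minus LN IL-4+ difference was positive, and 6 were called. At chr9:68969371-68969782 the log2 densities were 0.12 and 0.37, then 4.03, 2.49 and 3.25, then 2.05 and 2.54, and the lung IL-4+ minus LN IL-4+ difference was 3.01 ± 0.46 (adjusted p = 0.00998 by limma). Myo16 and Irs2, an adaptor of the insulin and IL-4 receptors, flanked 12 remote regions with sums of 9.94 and 12.2 in LN IL-4+, 83.0, 52.7 and 45.5 in lung IL-4+ and 31.9 and 41.2 in lung IFNγ+ cells. All 12 differences from LN IL-4+ cells were positive in both lung populations, and 5 and 2 were called. Between Cmc1 and Eomes, a T-box factor, 10 remote regions summed to 26.4 and 35.9 in LN IL-4+, 26.6, 17.1 and 10.9 in lung IL-4+ and 32.7 and 31.4 in lung IFNγ+ cells. The lung IFNγ+ minus LN IL-4+ difference was positive in 5 of the 10, and 2 were called. The larger of these calls, chr9:118357373-118357817, had 0.94 and 0.64 in LN IL-4+, 0.37, 1.41 and 0.82 in lung IL-4+ and 3.86 and 3.84 in lung IFNγ+ cells (lung IFNγ+ minus LN IL-4+ 3.06 ± 0.48, adjusted p = 0.00768 by limma).

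Between Clic5 and Runx2, a RUNX factor gene, the sums of normalized insertions were 98.5 and 117 in LN IL-4+, 212, 224 and 191 in lung IL-4+ and 289 and 291 in lung IFNγ+ cells. Of 39 regions, 37 had positive lung IFNγ+ minus LN IL-4+ differences and 9 were called, and 33 had positive lung IL-4+ minus LN IL-4+ differences and 1 was called. Between Gm5426 and Btg1, an antiproliferative gene, 51 regions had 11 calls higher in lung IFNγ+ cells than in LN IL-4+ cells and 4 higher in lung IL-4+ cells than in LN IL-4+ cells, with sums of 309 and 433, then 536, 542 and 538, then 620 and 615. The strongest, at chr10:96328426-96328880, had -0.08 and 0.33 in LN IL-4+, 1.44, 1.80 and 0.51 in lung IL-4+ and 3.86 and 3.48 in lung IFNγ+ cells. The populations followed this order without overlap in all 3 of these measures. A region 451 kb from the nearest start between Ptger4, a prostaglandin E2 receptor, and Dab2 (chr15:5695009-5695428) had 0.60 and 1.73, then 3.58, 3.46 and 3.14, then 4.74 and 4.63.

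Outside chromosome 18, the largest called loss without overlap from LN IL-4+ to lung IL-4+ cells was between Emx2 and Rab11fip2 (chr19:59650514-59650964). There, LN IL-4+ cells had 2.74 and 3.84, lung IL-4+ cells -1.22, -0.31 and -3.11 and lung IFNγ+ cells 0.10 and -0.58. Higher in LN IL-4+ cells were intervals on 1 side of Lpp, Tox and Runx1 each. Lpp lies next to Bcl6, the lineage factor of follicular helper T cells, and the interval from Lpp to Tprg held 33 remote regions, 26 of them in Lpp introns, with sums of 158 and 171 in LN IL-4+, 88.1, 67.2 and 73.3 in lung IL-4+ and 73.7 and 75.1 in lung IFNγ+ cells. Calls were 5 lower in lung IL-4+ and 8 lower in lung IFNγ+ cells than in LN IL-4+ cells, with none the other way. At chr16:24839991-24840436 in a Lpp intron, the log2 densities were 4.41 and 4.29, then 2.15, 1.36 and 0.81, then 1.00 and 1.22. The interval on the other side of Lpp, towards Bcl6, held 32 regions, 1 lower in lung IL-4+ and 3 higher in lung IFNγ+ than LN IL-4+ cells. Between Nsmaf and Tox, a factor of follicular helper and exhausted T cells, 3 of 36 lung IL-4+ minus LN IL-4+ differences were positive, and the sums were 128 and 128, then 70.0, 62.2 and 69.7, then 82.7 and 92.6. Its region at chr4:6674921-6675419 had 4.57 and 5.02 in LN IL-4+, 2.64, 1.67 and 3.28 in lung IL-4+ and 2.05 and 2.42 in lung IFNγ+ cells. The populations overlapped on the other side of Tox, towards Car8, where 48 remote regions summed to 77.1 and 114, then 83.8, 65.6 and 59.0, then 86.5 and 91.3. Between Runx1 and Setd4 the 16 regions summed to 66.0 and 69.3, then 33.6, 39.7 and 43.2, then 29.2 and 26.8. From Lpp to Tprg, Nsmaf to Tox and Runx1 to Setd4, every LN library exceeded every lung library.

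Single regions beside other T cell genes changed in 1 comparison or more. Beside Jun, a subunit of AP-1, chr4:95187612-95188540 had 2.37 and 3.33 in LN IL-4+, 5.54, 5.08 and 5.03 in lung IL-4+ and 4.54 and 4.66 in lung IFNγ+ cells. Next to Fosl2, which encodes another AP-1 subunit, chr5:32029858-32030540 in a Babam2 intron had 0.64 and -0.09, then 3.40, 3.63 and 3.11, then 1.13 and 1.91. The lung IL-4+ libraries were highest in both, by 2.37 ± 0.28 (adjusted p = 0.00416 by limma) and 3.11 ± 0.42 (adjusted p = 0.00617) over LN IL-4+ cells. By Cxcr4, a chemokine receptor, chr1:128708772-128709328 had 0.98 and 2.15, then 4.45, 3.94 and 3.54, then 3.30 and 3.61. Towards Itga4, the alpha chain of the integrin VLA-4, chr2:79065303-79065730 had 0.07 and 0.18, then 0.74, 1.07 and -0.22, then 3.49 and 3.13, and only the lung IFNγ+ libraries stood apart there. Between Foxo1, a factor of naive and memory T cells, and Cog6, chr3:52703447-52703867 had -0.21 and -0.59, then 1.15, 1.19 and 1.24, then 3.93 and 3.56 (lung IFNγ+ minus LN IL-4+ 4.14 ± 0.47, adjusted p = 0.00228 by limma), while chr3:52522877-52523332 had 3.50 and 3.22, then 0.88, 0.02 and 1.13, then 1.98 and 2.08. Regions of 1 interval thus changed in opposite directions. Towards Haao, chr17:84032438-84032869 beside Zfp36l2, an RNA-binding protein gene, had 4.94 and 5.44, then 3.49, 3.54 and 2.70, then 3.71 and 4.01.

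The interval with the most remote regions was the immunoglobulin heavy chain locus between Adam6a and Zfp386, with 135 members, 132 of them in or near receptor segments. B cells rearrange and express this locus. Summed insertions were 267 and 399 in LN IL-4+, 469, 352 and 306 in lung IL-4+ and 756 and 650 in lung IFNγ+ cells. The lung IFNγ+ minus LN IL-4+ difference was positive in 122 of the 135, with 19 called, and 6 were called higher in lung IFNγ+ over lung IL-4+ cells. At chr12:114299753-114300196 the log2 densities were 1.12 and 2.66, then 4.21, 3.97 and 3.49, then 6.20 and 5.95. For the B cell genes Cd79a and Ms4a1 no region within 1 kb of the start was in the table, but neither was one for the T cell gene Cd2. The cells had been sorted as CD3ε+ and B220-, and their purity after sorting was not analysed here. The part of B cells in these values was not tested. Without antigen receptor loci, 361 of 12201 remote regions (2.96%) were higher in lung IFNγ+ cells than in LN IL-4+ cells.

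Each motif string was searched on both strands of the central 400 bases of each region. Of the remote regions higher in lung IL-4+ cells than in LN IL-4+ cells, 45.1% held the AP-1 string and 44.5% the GATA string, against 19.4% and 24.2% of all remote regions. Those higher in lung IFNγ+ cells than in LN IL-4+ cells held the RUNX string in 34.1% (all remote regions 15.6%), AP-1 in 29.4% and STAT in 20.1% (all 14.9%). T-box strings stood in 14.3% of those raised in lung IFNγ+ over lung IL-4+ cells, which is 11 of 77, and in 2.12% of all. The TCF string stood in 24.3% of those higher in LN IL-4+ cells than in lung IL-4+ cells and in 22.0% of those higher in LN IL-4+ cells than in lung IFNγ+ cells (all 9.42%), and the E-box in 28.4% and 31.2% (all 19.0%). NFAT (TGGAAAA) had 16.6% in the former against 11.2% of all. The lists of called regions are of unequal size, and regions accessible anywhere already held AP-1 in 23.8% and RUNX in 19.4%. Called regions at all distances held these strings at similar shares, for example AP-1 in 41.2% and GATA in 35.6% of those higher in lung IL-4+ cells than in LN IL-4+ cells. Promoter regions were different, with the CpG-rich string GGGCGG in 48.1% and the ETS string CCGGAAG in 11.5%, against 6.12% and 2.34% of remote regions, whereas the CTCF core CCANNAGGG was in 7.69% and 6.93%.

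**Figure D5:**
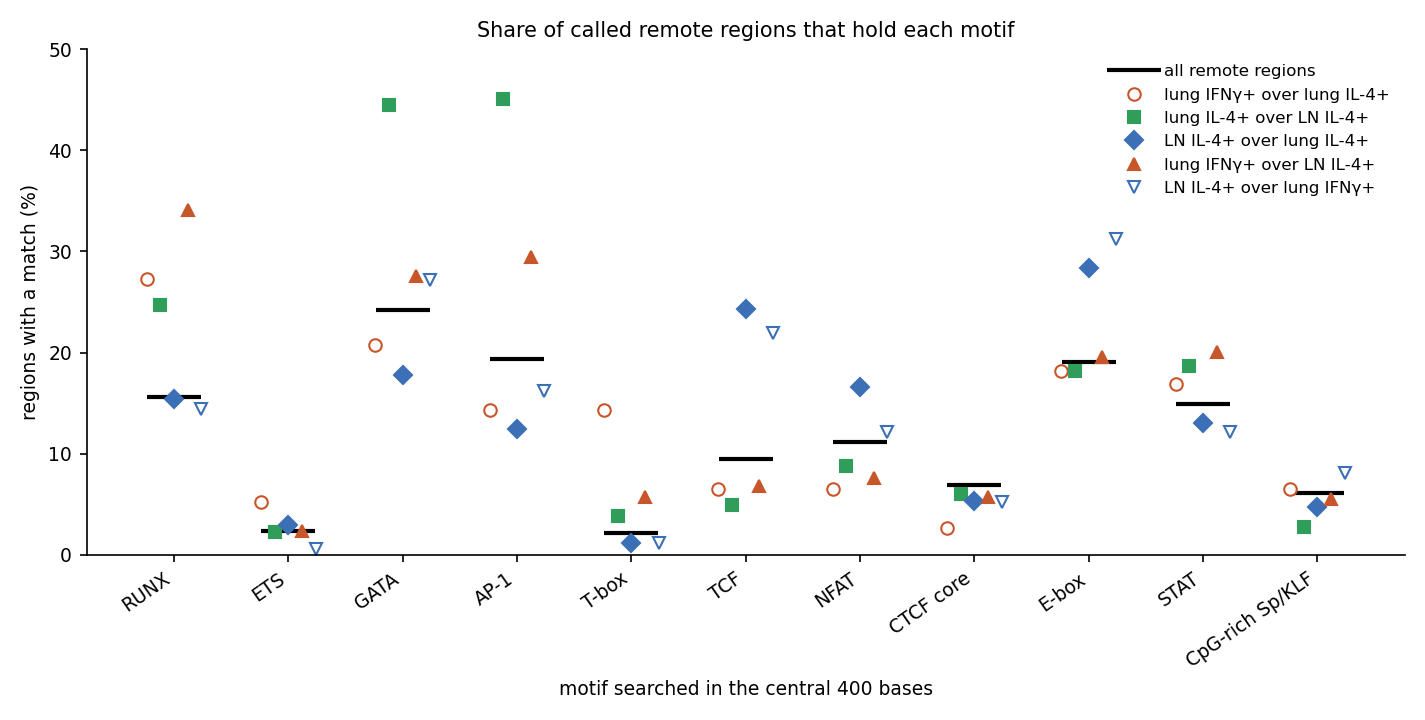
Percentage of remote regions with a match to each motif string in their central 400 bases. Black bars are all remote regions and symbols the called regions of each direction, except the 11 higher in lung IL-4+ cells than in lung IFNγ+ cells. The AP-1 and GATA strings reach 45.1% and 44.5% in regions higher in lung IL-4+ cells than in LN IL-4+ cells.

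The most distant and the most accessible members showed no call. The 5 farthest lay 2385 to 2680 kb from a start, each 401 bp long, on chromosomes 14, 1 and 8, with 3 of them between Pcdh20 and Pcdh9. The farthest, chr14:91150859-91151259, had -0.76 and -0.01 in LN IL-4+, -0.16, 1.00 and 1.67 in lung IL-4+ and 0.10 and 0.67 in lung IFNγ+ cells, and all 3 populations overlapped. The most accessible was between Gm5426 and Btg1 (chr10:96370826-96371332), at 7.12 and 7.72, then 7.75, 7.49 and 7.50, then 7.79 and 7.76. Between Ccdc54 and Cblb, a ubiquitin ligase that restrains T cells, chr16:51690780-51691304 had 6.06 and 7.23, then 7.47, 7.36 and 7.33, then 7.39 and 7.43. The 3 members just inside the limit lay 100006 to 100020 bases from a start, beside Pip4k2a, between Irx2 and Irx4 and in Wdr70, and the 3 just outside lay 99996 to 100000 bases away, beside Try4, in Nmnat2 and beside Hhipl2. None of these 6 was called.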

How the data were processed

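Chromatin accessibility was measured in 7 libraries, whose labels name the organ and the reporter that define each population. Per the study's methods, the authors mapped reads to GRCm38/mm10 with Bowtie2 2.3.2, marked duplicates, removed reads of low mapping quality or in blacklisted regions, called summits with MACS2 2.1.1 per replicate, merged windows of 1 width around them over replicates and counted insertions. The shortest region in the table is 401 bp. The authors deposited log2 densities, that is insertions normalized with voom (limma 3.38.3, R 3.5.1) per kb of region. After removal of region length the sorted values nearly coincide between libraries, so they are also quantile-normalized, a step the methods text does not name. Depth was rebuilt from ranks of tied values as a lower bound of 14005923 to 91681969 insertions, and counting error only is covered.

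The study gives its replicates as mice of 1 experiment. Distances were taken from region midpoints to GENCODE M21 starts. All 113820 regions were fitted with limma 3.58.1 (R 4.3.3, lmFit, eBayes with a variance trend, 1 mean per population), without a filter or pseudocount, and adjusted by Benjamini-Hochberg within a contrast. The procedure was tested on simulated data. Single values per library were compared by exact permutation in Python 3.11.15 (numpy 2.4.6, pandas 2.3.3, scipy 1.17.1, matplotlib 3.10.9).

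Regions named were the 5 largest changes per direction without overlap, the 5 farthest, the 5 most accessible, and 3 on each side of the limit. Intervals named were the 10 largest, up to 10 per contrast with at least 3 calls, and those with a call beside a listed gene, of which the text gives a part with the strongest called region of each. The members, lists and motifs were chosen with earlier results of these data known. Alternatives were other thresholds, populations, centring, pseudocount, filter, GC correction, replicate block, weights, a spread covariate, distance limits, annotations and each library left out. RefSeq mRNA starts were added after seeing the data. No per-sample column was left out, and the sequence of each region was read from the GRCm38 reference.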

Additional observations from a re-analysis of the deposited data

How the results depend on the processing

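The 6 counts of called remote regions moved with the fit, and no difference of a named region changed sign. Counts are given in the order lung IL-4+ over lung IFNγ+, lung IFNγ+ over lung IL-4+, lung IL-4+ over LN IL-4+, LN IL-4+ over lung IL-4+, lung IFNγ+ over LN IL-4+ and LN IL-4+ over lung IFNγ+, which were 11, 77, 182, 169, 384 and 173. With each library left out in turn they ranged over 0 to 31, 0 to 166, 40 to 390, 30 to 220, 13 to 728 and 1 to 229. A replicate block gave 0, 0, 0, 0, 70 and 15. A 3-fold difference with an unadjusted p below 0.05 in limma held for 121, 324, 448 and 366 of the first 4. With the GC correction and the block all 6 were 0, and a 3-fold difference with an unadjusted p below 0.05 in limma held for 160, 319, 456, 443, 751 and 577. Whether same-numbered libraries share an animal is not given in the sources used here, and their deviations correlated at -0.54 to 0.057, so the numbers were not taken to pair samples. Fits of only the 2 populations gave 31, 174, 103 and 91 for the first 4, a spread covariate 107, 119, 387 and 302, and 398 for the last, and array weights 247 and 608 for the first 2. A pseudocount of 1 gave 126 for the second and 119 for the third, median centring 5 and a 2-fold limit 18 for the first. Accessible counts were 1311, 1226 and 1569 in LN IL-4+ cells, IL-4+ cells of the lung and lung IFNγ+ cells at a minimum of 10 and 6834, 6706 and 6570 at 3. Without a library, the distance ratio ranged over 1.10 to 1.37 for populations and 1.14 to 1.26 for tissues. The excess over promoters was 0.223 with 1 minus Pearson's r, and -0.0251 (without LN replicate 2, a change of sign) to 0.109 with each library left out, with an exact permutation p of 0.0333 without lung IFNγ+ replicate 2. Differences in the share of insertions, none past the threshold, changed sign. On rebuilt counts, which are lower bounds, they were 0.584 percentage points for lung IL-4+ against lung IFNγ+ and -0.199 for lung IFNγ+ against LN cells. Lung IL-4+ against LN cells gave -0.233 without LN replicate 1, in a range up to 0.641 with each library left out. The cause of these shifts was not tested. Of the named regions' calls, 331 settings kept the side of the threshold and 148 lost the call.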
